A study of Mus musculus with 3 samples.

Results

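The core circadian clock genes of mouse medial prefrontal cortex (mPFC), which lies at the front of the brain, were examined as 10 genes of an RNA-seq table of 46073 genes. They were chosen by name as the transcription factors of the activating arm (Clock, Npas2 and Arntl, also called Bmal1), the period and cryptochrome genes of the repressing arm (Per1, Per2, Per3, Cry1 and Cry2) and an output arm of Dbp and Ciart. All 10 were found, each as 1 Ensembl gene. The tissue came from naïve C57BL/6 mice aged 3 months, and the labels name no treatment or transgene and no other condition to set against them. Of the series' 3 samples, the RNA sample was used, while the MeDIP and input DNA samples were not analysed here. The design text gives 3 replicates for RNA-seq, but the table holds 1 value per gene, so the values carry no error and ratios between genes could not be tested. The time of day at which tissue was taken is not given in the sources used here, although the RNA of several of these genes is known to cycle through the day.

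In the mammalian clock, CLOCK or its paralog NPAS2 pairs with BMAL1, binds E-box sequences and drives the Per and Cry genes, whose proteins return to the nucleus and repress that pair. A second loop acts on Arntl itself, which ROR receptors activate and REV-ERB receptors repress. DBP carries the rhythm on to genes with D-box sequences. The master pacemaker of mammals is the suprachiasmatic nucleus of the hypothalamus, but the same loop runs in most tissues, the cortex included.

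Values were FPKM, which counts fragments relative to transcript length and to 1000000 mapped fragments and so allows genes of different length to be set side by side. At 1 FPKM or more, the level taken as detected, stood 10 of the 10 clock genes, against 58.6% of the 20635 protein-coding rows of the table. At 10 FPKM or more stood 4 of the 10, against 29.1% of protein-coding rows. The median clock gene was at 7.17 FPKM, above the median of all protein-coding rows (2.59 FPKM) and below that of the detected ones (9.86 FPKM). The range went from Cry1 at 3.41 FPKM to Cry2 at 29.0 FPKM, an 8.50-fold span that ran from the 53.5th to the 88.0th percentile of protein-coding rows. The depth behind these values is unknown, so they have no counting interval.

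**Figure D1:**
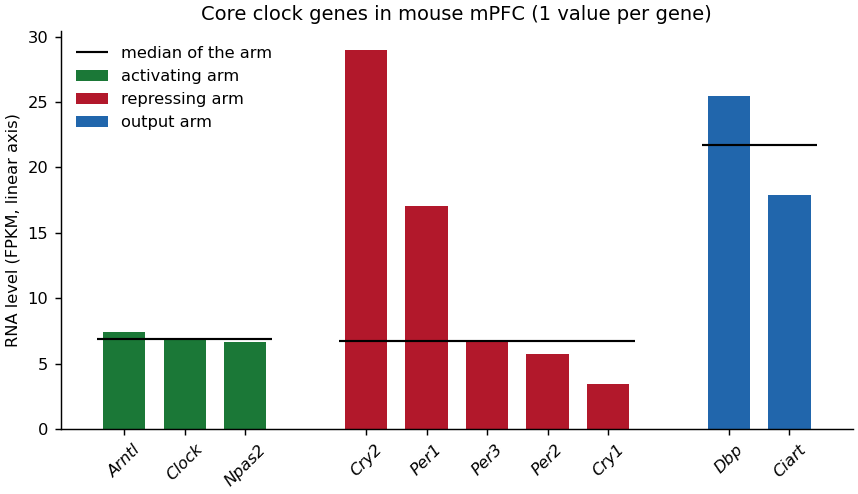
RNA level of the 10 clock genes in mPFC, in FPKM on a linear axis, as 1 bar per gene grouped by arm, with a black line at the median of each arm. The 3 activating genes are nearly level between 6.61 and 7.43 FPKM, the 5 repressing genes spread from 3.41 to 29.0 FPKM and both output genes stand at 17.9 FPKM or more.

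The activating arm was the most even. Arntl, the partner shared by both paralogs, was listed at 7.43 FPKM (chromosome 7, 113178471 to 113314126, GRCm38). Clock, whose protein pairs with BMAL1, was at 6.91 FPKM (chromosome 5, 76209868 to 76305603). Npas2, its paralog known for its expression in the forebrain, was at 6.61 FPKM (chromosome 1, 39193702 to 39363240). These levels differed by at most 1.12-fold, an interval that holds 413 of the 20635 protein-coding rows. Npas2 stood at 0.957 of Clock, so the table lists both possible partners of Arntl at nearly the same RNA level. Arntl2, a paralog of Arntl, was lower: Arntl exceeded it 3.56-fold (7.43 against 2.09 FPKM). Arntl and Clock have 21 and 13 annotated RefSeq transcripts, so the length assumed for each by the FPKM calculation may weigh on their levels, and this was not tested.

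The repressing arm was uneven within both of its families. Among the period genes, whose proteins form complexes with the cryptochromes, Per1 was highest at 17.1 FPKM (chromosome 11, 69095108 to 69109965). Per3 was at 6.77 FPKM (chromosome 4, 150997018 to 151044707) and Per2 at 5.77 FPKM (chromosome 1, 91415977 to 91459351). Per1 was 2.96 times Per2 and 2.52 times Per3, and it made up 57.7% of the 29.6 FPKM that the 3 genes summed to. Per2 and Per3 were close, at a ratio of 0.853.

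The cryptochromes were further apart than any other pair of core genes of 1 family. Cry2, a repressor of the CLOCK and BMAL1 pair, was the highest of the 10 genes at 29.0 FPKM (chromosome 2, 92403646 to 92434085). Cry1, its paralog with the same core role, was the lowest at 3.41 FPKM (chromosome 10, 85131700 to 85185054). The ratio of Cry2 to Cry1 was 8.50, and Cry2 accounted for 89.5% of their summed 32.4 FPKM. Summed levels of the 2 families were near each other, at 29.6 FPKM for the period genes and 32.4 FPKM for the cryptochromes. Cry2 shares 23417 of the 30440 bases of its span with D930015M05Rik, a long non-coding RNA gene listed at 0.550 FPKM, while Cry1 and Per1 overlap no gene of the RefSeq table.

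Both output genes were above every activating gene. Dbp, the D-box activator of the PAR bZIP family, was at 25.5 FPKM (chromosome 7, 45705100 to 45710203). Ciart, also called Chrono, is an E-box gene whose protein in turn represses the CLOCK and BMAL1 pair, and it was at 17.9 FPKM (chromosome 3, 95878500 to 95882257). Dbp was 1.42 times Ciart and 3.43 times Arntl, and Ciart was 2.41 times Arntl. Dbp overlaps the sphingosine kinase gene Sphk2, listed at 11.6 FPKM, over 741 bases. The whole span of Ciart lies within C920021L13Rik, a long non-coding RNA gene at 1.52 FPKM. The library kit does not mark strand, so reads from such overlaps cannot be told apart. Of the other members, Per3 overlaps the urotensin gene Uts2 (0.102 FPKM) over 4714 bases. Clock overlaps the long non-coding Gm7467 (0.748 FPKM) over 652 bases, and with Npas2 it holds pseudogenes at or under 0.0847 FPKM where a level was matched. Arntl and Per2 share 18143 and 14768 bases with long non-coding RNA genes, Gm33721 and Gm35591, for which no level was matched. These are overlaps of whole gene spans, introns included.

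Set against each other, the medians of the arms were 6.91 FPKM for the activating, 6.77 FPKM for the repressing and 21.7 FPKM for the output arm. The activating median was 1.02 times the repressing one, and that order turned with the mean of the members, which was 6.99 FPKM for the activating and 12.4 FPKM for the repressing arm, a ratio of 0.564. The direction between these arms therefore depends on the summary used. Gene by gene, an activating gene was the higher one in 8 of 15 pairings with a repressing gene and in 0 of 6 with an output gene. A repressing gene, each time Cry2, exceeded an output gene in 2 of 10 pairings. The activating median was 0.319 of the output median, and the ratio stayed below 1 with the median, the mean, the geometric mean and the sum. Geometric means were taken of FPKM + 1, and 1 was then subtracted.

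In the order of the 10 levels, Per1 and Arntl mark the widest step, 2.30-fold, with 3056 protein-coding rows between them. Above it stood Cry2, Dbp, Ciart and Per1, and below it Arntl, Clock, Per3, Npas2, Per2 and Cry1. Neighbours were as close as 1.02-fold for Clock over Per3 and for Per3 over Npas2, 1.05-fold for Ciart over Per1 and 1.07-fold for Arntl over Clock. Without a spread between libraries, whether neighbours differ could not be tested. With 1 sample there is also no pattern across samples by which other genes could be called alike.

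**Figure D2:**
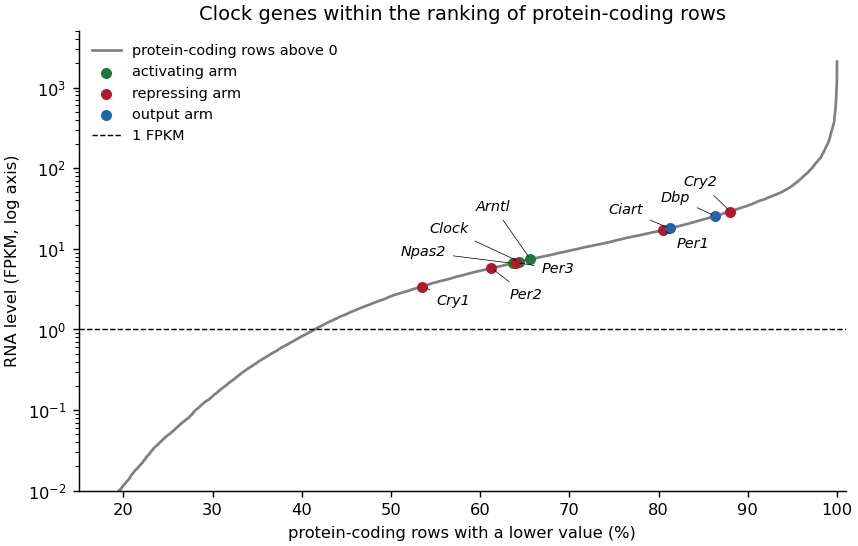
All protein-coding rows above 0 in order of level (grey line) with the 10 clock genes marked by arm. The horizontal axis is the percentage of protein-coding rows with a lower value, the vertical axis is FPKM on a log scale and the dashed line is 1 FPKM. The genes fall into an upper set of 4 from Per1 to Cry2 and a lower set of 6 from Cry1 to Arntl.

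Sequence around annotated starts of the clock genes was read from RefSeq promoter windows of GRCm38.p6, the assembly of mm10. Each window covered 250 bases before and 50 after a start. Such windows were found for 9 of the 10 genes, Per2 being the other. Those of Arntl, Clock, Npas2 and Per1 lie inside the whole annotated span of the gene, so their sequence is not upstream of it. All windows were searched on both strands for the E-box CACGTG, its variant CACGTT, the D-box TTATGTAA and its form TTACGTAA. The ROR core motif AGGTCA and the CREB site TGACGTCA were searched for as well. CACGTG, TTACGTAA and TGACGTCA read the same on both strands and were counted once, and no 2 matches overlapped in these genes. The E-box and D-box matches and the ROR match of Arntl, the kinds of sequence through which the loop is known to act, are shown with their neighbouring bases, 5′ to 3′ on the gene's strand, with the motif in capitals.
Ciart, chr3:95882331-95882352, minus strand: tctagagtCACGTGttgccggt
Ciart, chr3:95882273-95882294, minus strand: gggggaggCACGTGcagaaccg
Ciart, chr3:95882259-95882280, minus strand: cagaaccgCACGTGtctgggag
Cry1, chr10:85185101-85185122, minus strand: ccggtggtCACGTGgggtgcat
Per1, chr11:69098775-69098796, plus strand: cccaagtcCACGTGcagggatg
Per3, chr4:151044855-151044878, minus strand: cccgcgcgTTATGTAAggtactcg
Per3, chr4:151044808-151044831, minus strand: gcccgcggTTATGTAAcccccgcc
Arntl, chr7:113207534-113207555, plus strand: cagaaagtAGGTCAgggacgga

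The E-box CACGTG was found in 3 of the 9 genes with a window, Per1, Cry1 and Ciart, against 9.11% of 16564 protein-coding genes. Among the 3 activating genes it was found in 0. Ciart held 3 copies, starting 116, 58 and 44 bases before its annotated start, and 23 of all 20208 windows (0.114%) held as many. The variant CACGTT was present in Cry1 and Cry2, against 5.52% of genes. In Cry1 it starts 79 bases and the E-box 60 bases before the start. The D-box TTATGTAA occurred in Per3 alone of the 9 genes, against 0.996% of genes, and the Per3 window holds it at 205 and 158 bases before the start. Of all windows, 4 (0.0198%) hold it 2 times. The ROR core motif AGGTCA was found in Arntl, 32 bases after an annotated start, as well as in Clock and Per1, against 16.6% of genes. A gene was counted when any of its windows held the motif, so genes with more windows have more chances to be counted. Arntl, Clock and Per1 have several windows, and not all of them hold AGGTCA or, in Per1, CACGTG. TTACGTAA and TGACGTCA were found in 0 of the 9 genes, against 0.145% and 2.61% of genes. The Dbp and Npas2 windows hold none of the 6 motifs, which says only that these letters are not in those 300 bases. The 3 genes with the E-box were at 17.9 (Ciart), 17.1 (Per1) and 3.41 FPKM (Cry1). Any link between motif and level was not tested.

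The upstream stretches of Ciart and Per3, outside the annotated span of each gene, show how the repeated motifs lie. The first is chr3:95882258-95882478 and the second chr4:151044708-151044915, both on the minus strand of GRCm38.p6, with the E-box in capitals in Ciart and the D-box in capitals in Per3.
Ciart: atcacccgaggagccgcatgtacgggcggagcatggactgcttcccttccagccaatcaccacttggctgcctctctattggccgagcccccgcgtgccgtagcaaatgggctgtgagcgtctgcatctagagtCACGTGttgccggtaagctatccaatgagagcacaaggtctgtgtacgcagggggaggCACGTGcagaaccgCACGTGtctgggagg
Per3: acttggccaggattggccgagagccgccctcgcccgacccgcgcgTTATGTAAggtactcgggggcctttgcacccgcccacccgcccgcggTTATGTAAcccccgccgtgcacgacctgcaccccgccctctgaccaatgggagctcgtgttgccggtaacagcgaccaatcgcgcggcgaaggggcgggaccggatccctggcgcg

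**Figure D3:**
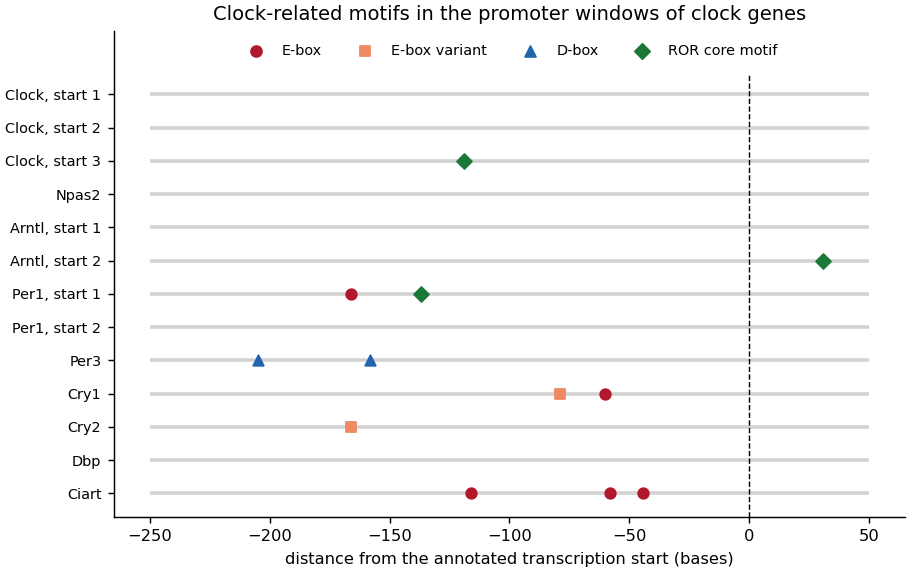
Position of 4 kinds of motif in the promoter windows of 9 clock genes, 1 line per annotated start, in bases from the start (dashed line). Ciart has 3 E-boxes, Per3 has 2 D-boxes and the Arntl match lies after its start.

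The windows differed in their content of CpG, the dinucleotide at which most DNA methylation of mammals lies. The ratio of observed to expected CpG had a median of 0.584 over all windows. Per3 was at 1.02, Cry1 at 0.979, Npas2 at 0.950 and Cry2 at 0.826. Ciart at 0.683 and Dbp at 0.665 were nearer the median. Genes with several annotated starts varied among them, Clock between 0.558 and 1.09, Arntl between 0.818 and 0.852 and Per1 between 0.536 and 0.675, so that Per1 and Clock each had a window under the median. A motif match is a description of letters and not a binding site, and methylation itself was not analysed here.

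The nuclear receptors of the second loop stood far apart. Nr1d1, which encodes REV-ERB alpha, a repressor of Arntl, was at 56.4 FPKM, 7.6 times Arntl, and was above every core clock gene. Nr1d2, for REV-ERB beta, was at 19.3 FPKM, so that Nr1d1 was 2.93 times as high. The activating receptor genes were lower, Rora at 4.15 and Rorb at 1.84 FPKM, a ratio of 2.26. Both repressor genes thus exceeded Rora and Rorb in level. Nr1d1 overlaps Thra, the thyroid hormone receptor gene, over 1075 bases. Thra was listed at 357 FPKM, so the value of Nr1d1 is uncertain.

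Dbp was not the highest of its family. Tef and Hlf, the other PAR bZIP activators of D-box genes, were at 94.7 and 43.9 FPKM. Dbp was thus 0.269 of Tef and 0.580 of Hlf, and it held 15.5% of the 164 FPKM they summed to. Nfil3, which encodes a repressor acting on the same D-boxes, was at 2.50 FPKM, so that Dbp was 10.2 times as high. Bhlhe40, an E-box repressor also called Dec1, was at 50.4 FPKM and 5.38 times its paralog Bhlhe41 at 9.37 FPKM. The median of the further bHLH and bZIP regulators was 7.18 FPKM, and 12 of 12 genes were detected, against 58.6% of protein-coding rows. The lowest were Npas3 at 1.12 and Arntl2 at 2.09 FPKM. Timeless, which with Tipin acts at the replication fork, was at 2.23 FPKM, 0.288 of Tipin at 7.75 FPKM.

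**Figure D4:**
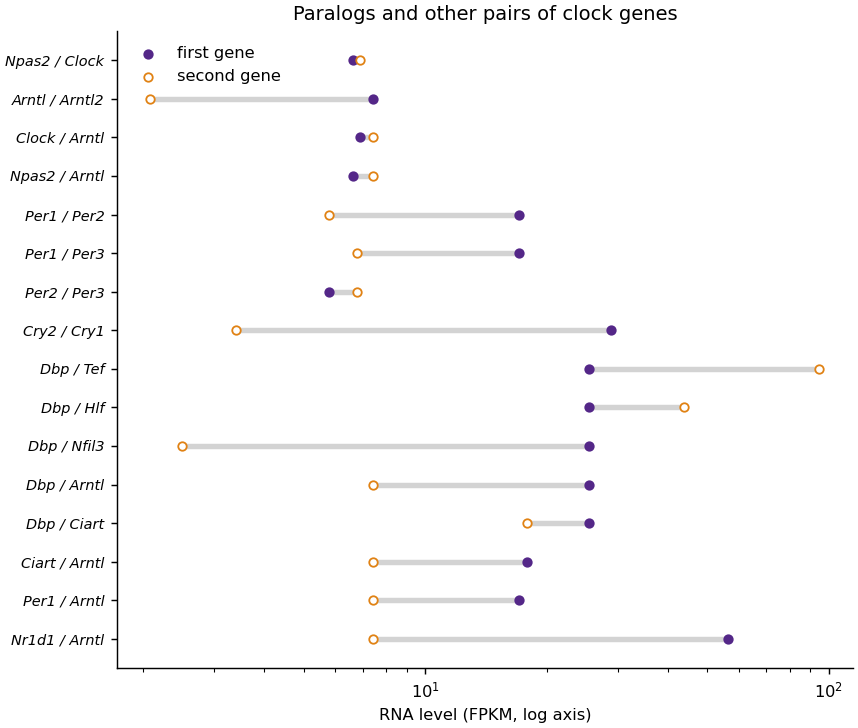
Levels of both genes of the 16 pairs that hold a core clock gene, in FPKM on a log axis, with the first-named gene as a filled and the second as an open circle. Cry2 over Cry1 and Dbp over Nfil3 are among the wide pairs, while Npas2 and Clock nearly coincide.

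Enzymes that modify clock proteins had higher medians than any of the 3 arms. The kinase and phosphatase list had all 17 of its 17 genes detected, against 58.6% of protein-coding rows, and a median of 56.4 FPKM. High in it were the phosphatase subunit Ppp1cb at 148 and the casein kinase subunit Csnk2b at 126 FPKM, while the AMP-activated kinase genes Prkaa2 and Prkaa1 were lowest at 4.89 and 4.65 FPKM. Csnk1d and Csnk1e, the main kinases of the period proteins, were at 56.4 and 38.9 FPKM, a ratio of 1.45. Genes that add or remove ubiquitin had a median of 36.1 FPKM, and 11 of 11 passed the detection level that 58.6% of protein-coding rows passed. The general ligase components Skp1a at 267 and Cul1 at 85.6 FPKM and the ligase Huwe1 at 57.5 FPKM were highest. Fbxl21, an F-box gene for cryptochromes, was the lowest of the list at 1.58 FPKM. Btrc, an F-box gene for period proteins, followed as next lowest at 15.7 FPKM.

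Chromatin and RNA cofactors were detected in 18 of 18 cases (median 12.9 FPKM), from the helicase gene Ddx5 at 140, the corepressor gene Ncor1 at 71.2 and the cold-inducible Cirbp at 57.9 FPKM to the acetyltransferase gene Crebbp at 4.09 and the deacetylase gene Sirt1 at 3.55 FPKM. Over all 8 lists of related genes 84 of 96 different genes were detected (87.5%), against 58.6% of protein-coding rows. Of the 24 fixed pairs of clock and related genes, 16 were 2-fold or more apart when 1 FPKM was added to each value before taking log2, which shrinks differences between low genes. In 14 of them the first-named gene was higher and in 2, Dbp over Tef and Timeless over Tipin, it was lower. How often any pair of protein-coding rows lies as far apart was not computed, so the count only describes these pairs.

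Markers of the suprachiasmatic nucleus were mostly under the detection level. Their median was 0.147 FPKM, and 3 of 14 passed, against 58.6% of protein-coding rows. The neuropeptide genes Vip at 21.6 and Grp at 12.4 FPKM and the signalling regulator Rgs16 at 3.51 FPKM passed it, all of which cortical cells also express. Avp, vasopressin, was at 0.0628 FPKM, Vipr2, the VIP receptor of the pacemaker, at 0.214 FPKM and Prok2, a pacemaker output signal, at 0.0742 FPKM. Nmu was at 0.00511 FPKM, Nms at 0.00400 FPKM and the transcription factor gene Six6 was listed at 0. Of 7 markers listed for the hypothalamus and suprachiasmatic nucleus, 0 were detected, against the same 58.6%. This list shares Avp, Vipr2 and Six6 with the first and leaves out Vip and Grp, so the 2 counts are not independent. By contrast, 4 of 4 excitatory and 4 of 4 cortical layer markers were detected, with Slc17a7 at 353 and Cux2 at 16.8 FPKM. Glial markers were detected as well, with the astrocyte marker Slc1a3 at 110 FPKM and the oligodendrocyte marker Mbp at 912 FPKM. So were all 3 choroid plexus markers, Ttr at 566, Folr1 at 12.5 and Kcnj13 at 8.57 FPKM. Ttr stood above 99.8% of protein-coding rows. How much of the RNA, that of clock genes included, came from choroid plexus and not from cortex was not tested. In bulk tissue a clock gene's level cannot be divided among these cell types, and fewer cells of a type and less RNA per cell cannot be told apart.

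**Figure D5:**
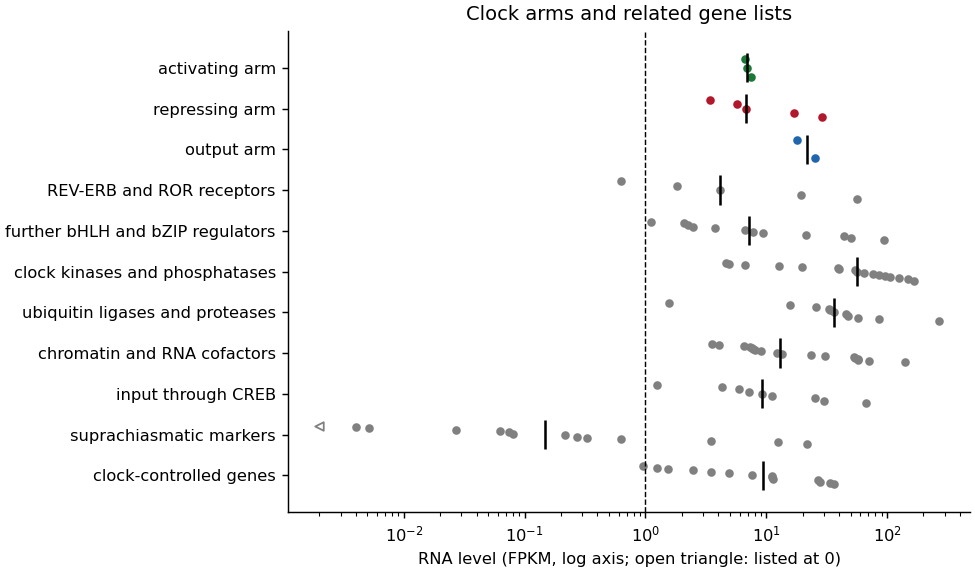
Levels of the 3 arms and of 8 lists of related genes, in FPKM on a log axis, 1 point per gene, with a black bar at the median and a dashed line at 1 FPKM. The open triangle is Six6, listed at 0. Kinase and ubiquitin genes have medians of 56.4 and 36.1 FPKM, above those of the 3 arms, and the suprachiasmatic list lies mostly under 1 FPKM.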

How the data were processed

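RNA of mouse mPFC was extracted with a phenol-based reagent and made into libraries with the TruSeq RNA v2 kit, per the labels' protocols. The build mm10 and the tools CASAVA 1.8.2, TopHat and Cufflinks are listed for the RNA data, per the submitters' processing notes. Not given in the sources used here are the annotation release, the strand setting and how replicates were combined. The authors deposited FPKM values in 2 columns that are equal in 46073 of 46073 rows and were counted as 1 sample, so no test was possible. Ensembl identifiers were matched to symbols for 45139 rows, and gene class, coordinates and promoter windows came from RefSeq GRCm38.p6 by symbol. Detected means 1 FPKM or more, and pairs were compared on log2(FPKM + 1). The members and lists were chosen with earlier results of these data known. Named are all members, the genes of the pairs and the 3 highest and 2 lowest of each list, while the overlapping genes, marker examples and CpG ratios were added after values were seen. Some genes that the rule takes are left out of the text, though counts and medians include them. Icer, a product of Crem, had no row. Calculations were tested on simulated data. The software was Python 3.11.15 with pandas 2.3.3, numpy 2.4.6 and matplotlib 3.10.9.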

Additional observations from a re-analysis of the deposited data

How the results depend on the processing

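With neither replicates nor depth, a value was called unmoved when it stayed on the same side of 1 and within 1.5 times. The ratio of the activating to the repressing arm, 1.02 by medians, turned to 0.737 with geometric means of FPKM + 1, less 1. It was 0.564 with means, 0.338 with sums, which also reflect the number of members, and 0.580 with Ciart counted as a repressor. Leaving out 1 member at a time gave 0.580 to 1.10, below 1 without Arntl, Per2, Per3 or Cry1. The ratio of the activating to the output arm was 0.319, 0.483 with sums, and 0.271 to 0.386 with 1 member left out. The ratio of the repressing to the output arm was 0.312, became 0.571 with means, 0.468 with Ciart as a repressor and 1.43 with sums, and lay between 0.265 and 0.549 with 1 member left out. A detection level of 10 FPKM kept 4 of 10 clock genes and 52 of 96 related genes, against 29.1% of protein-coding rows. The median clock gene stood above 65.0% of protein-coding rows, but above 40.3% of the detected ones. The pair Rora and Rorb, 0.86 apart on the log2(FPKM + 1) scale, was 1.14 apart with a pseudocount of 0.1 and 1.18 without one, past the 2-fold limit. Rescaling to a fixed sum multiplies every row by the same number and so could change no rank. When the rows other than mitochondrial ones were made to sum to 1000000, levels rose in the same proportion, Clock for example to 17.6. Mitochondrial rows held 50.04% of the summed FPKM. The second value column, equal to the first in every row, could only give the same results. No paired analysis was possible because there is 1 sample. Without separate libraries, the planned limma test and the leaving out of libraries were not run.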

Other observations

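The list of clock-controlled E-box and D-box genes had a median of 9.39 FPKM, and 13 of 14 passed the detection level, against 58.6% of protein-coding rows. It was named by role and not by the motif search. Of its 11 genes with a promoter window, 5 held CACGTG, against 9.11% of genes, and 1 held TTATGTAA, against 0.996%. The ubiquitin protease gene Usp2 at 36.1, the Krüppel-like factor gene Klf9 at 33.4 and the glucocorticoid-induced Tsc22d3 at 27.9 FPKM were highest. Hif3a at 0.949 FPKM was under the detection level and Sik1, a kinase gene, was at 1.25 FPKM.

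Genes that carry signals to the clock through the transcription factor CREB had a median of 9.24 FPKM, and 9 of 9 passed that level, against the same 58.6%. Id2, an inhibitor of bHLH factors, was at 67.0, the CREB coactivator gene Crtc1 at 29.9 and Adcyap1r1, the PACAP receptor gene, at 25.1 FPKM. The lowest were Nos1, the neuronal nitric oxide synthase gene, at 4.31 FPKM and Sik1. The peptide gene Adcyap1 itself was at 7.21 FPKM.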
